A study of Homo sapiens with 6 samples.

Results

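RAB proteins are small GTPases that mark the membranes of a cell and direct traffic between them. In the GTP-bound form each RAB sits on its own compartment and recruits effectors, such as tethers, motors and coat regulators; exchange factors load GTP, GTPase-activating proteins end the signal, and a lipid tail added after translation anchors the protein in the membrane. Prostate luminal cells use this system to take up receptors through early endosomes, to return them through recycling endosomes, and to release large amounts of secreted protein through the endoplasmic reticulum, the Golgi and secretory vesicles.

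The genes described here are all those whose symbol is RAB followed by a number and at most a letter and further digits, read from probe sets that name a single gene. The array held 57 such genes among 19775 with a single-gene probe set. Of these, 53 passed the lower limit on signal and were tested among 14269 genes, and 4 were too dim (RAB4B, RAB6A, RAB38 and RAB40A). RAB34, RAB6C and RAB6D are represented only by probe sets that name several genes and were not analysed here, nor were RAB19, RAB41 and RAB44. RAB6A is also named on brighter probe sets, together with other genes, so that its dim value says little of that gene.

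The cells were LNCaP, an established androgen-responsive human prostate cancer line. All cultures were kept for 3 days in RPMI without phenol red, with 10% FCS stripped of steroids by charcoal and dextran. The 3 cultures of the DHT group then received 100 nM dihydrotestosterone (DHT), a potent natural androgen, for 48 h, and 3 cultures were controls. The labels name no vehicle for the controls. The labels call the cultures of a group biological replicates and do not say whether they were grown apart, so that p-values measure the spread between these 3 arrays per group.

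Values are Affymetrix signals on a linear scale, 1 array per culture, already scaled by the authors to a mean of 100.03 after trimming 2% at both ends. Each gene is given by its brightest probe set. Changes are DHT minus control on the scale of log2(signal + 16), which understates the change of dim genes, and a gene is called higher or lower at a Benjamini-Hochberg adjusted p of 0.05 in limma over all 14269 genes. The number of arrays limits the precision. Because of the common scaling every direction is relative to the average transcript. Of the markers used to check the labelled cell type, all 8 luminal genes found were above the limit, with a summed signal of 11318 to 11912 in the controls and 22636 to 23242 with DHT, while 0 of 3 basal keratins, 1 of 3 leukocyte and 2 of 4 endothelial markers were. The 6 markers of fibroblasts or smooth muscle were also above it, with sums of 545 to 607 and 518 to 592. The 3 neuroendocrine markers found, 2 of them above the limit, summed to 247 to 256 in the controls and 147 to 237 with DHT. For the ACTB control probe sets, signal at the 3' end over that at the 5' end was 1.37 ± 0.05 (SD, n = 3) in the controls and 1.77 ± 0.07 (n = 3) with DHT (two-sided exact permutation p = 0.1, the smallest that 3 against 3 arrays can give), and that of GAPDH was 0.904 ± 0.044 and 1.06 ± 0.05 (exact p = 0.1). The part of these shifts in the results was not tested.

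With DHT, 4 RAB genes rose and 5 fell. Those that fell were RAB5C and RAB22A of early endosomes, RAB11B and RAB25 of recycling endosomes, and the little studied RAB42. Those that rose were RAB3B and RAB27B of secretory vesicles, RAB1B between endoplasmic reticulum and Golgi, and RAB29 of the Golgi and lysosomes. The remaining 44 tested members did not pass in limma. Across all tested genes 12.9% passed, 6.95% as higher and 5.91% as lower, and the 9 of 53 RAB genes (17.0%) are to be read against that share. At an unadjusted p under 0.05 in limma, 1969 of the 14269 genes were higher and 1732 lower. The unadjusted counts given below for each list are to be read against those numbers. The median change of the 53 genes was 0.04, against 0.02 over all genes tested, and the median size of a change was 0.17, against 0.18. The DHT arrays all lay above the controls for 10 members and all below for another 10, where 16.9% and 14.0% of all genes did so. When the arrays were scaled instead to the hybridisation spikes, which lowers every change by 0.55, the median of all genes was -0.53. The 5 falls still passed with that scaling, while the 4 rises did not, so that these 4 rises hold relative to the average transcript only. Of the partner genes named further below, 9 that rose also lost their calls there, while KIF20A kept its call. The remaining rises below are not given with that scaling. Because that scaling moves every change down, the falls could only become larger, and their passing there is no added support for them.

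**Figure D1:**
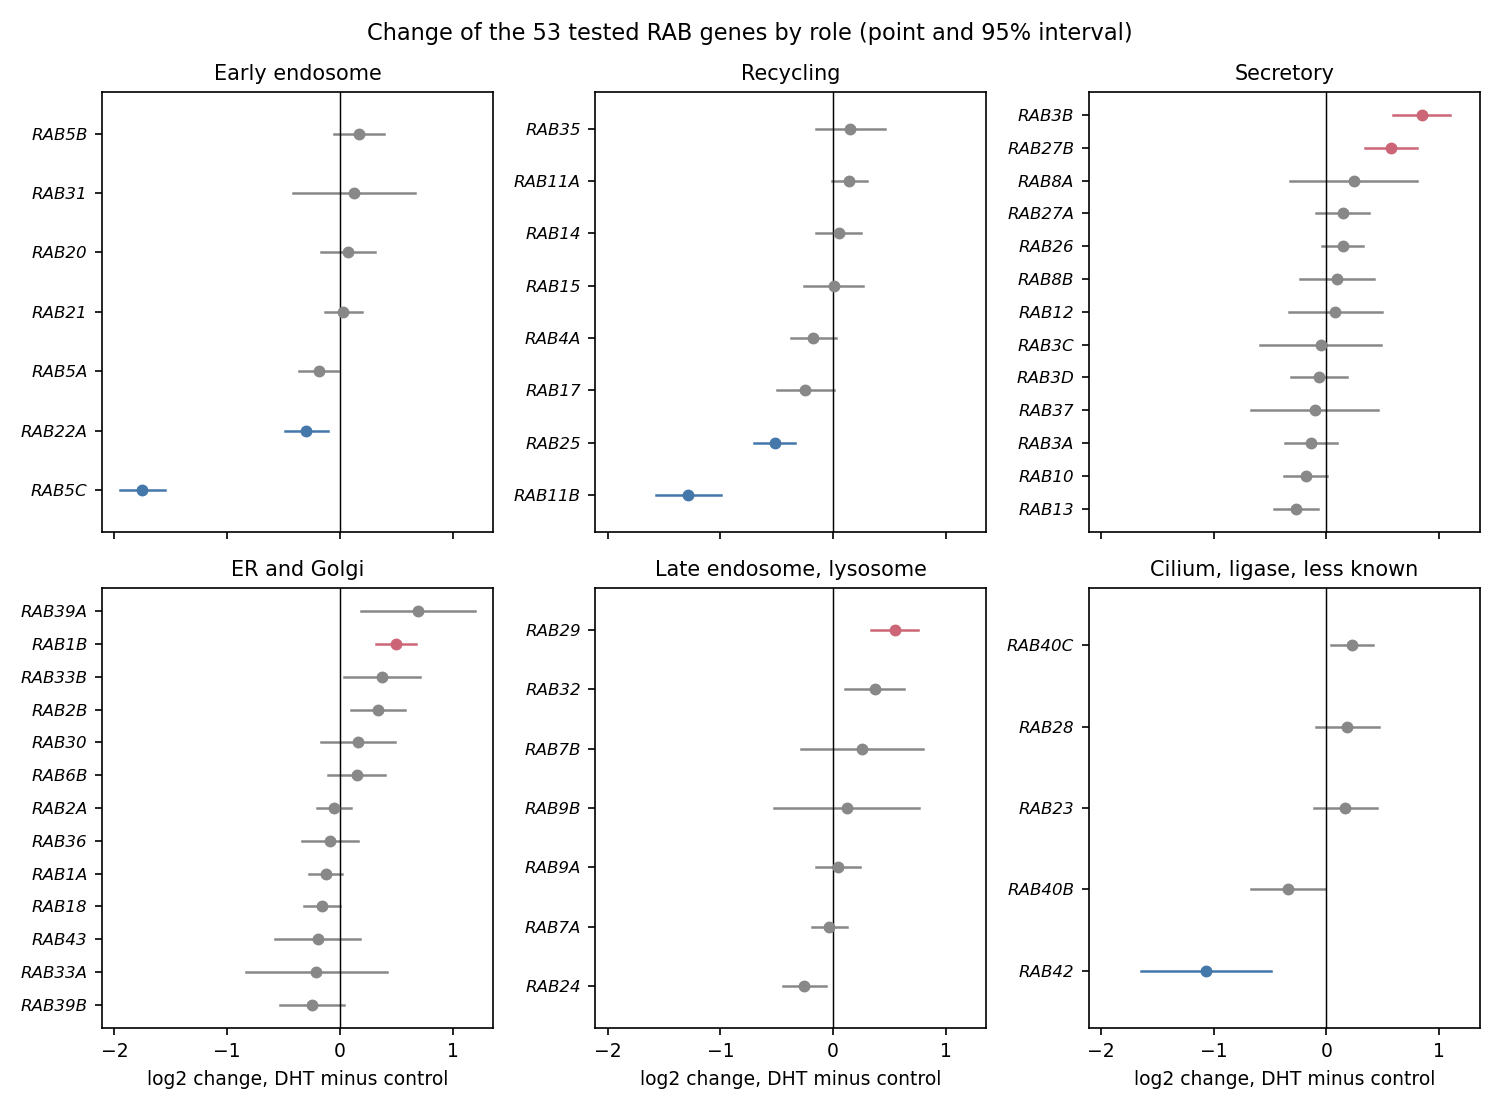
Change of each of the 53 tested RAB genes, as DHT minus control on the log2(signal + 16) scale, in panels by role. Points are limma estimates from 3 arrays per group and bars their 95% intervals; red marks genes called higher, blue genes called lower and grey genes that did not pass. The lowest value is that of RAB5C at -1.75 and the highest that of RAB3B at 0.84.

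**Figure D2:**
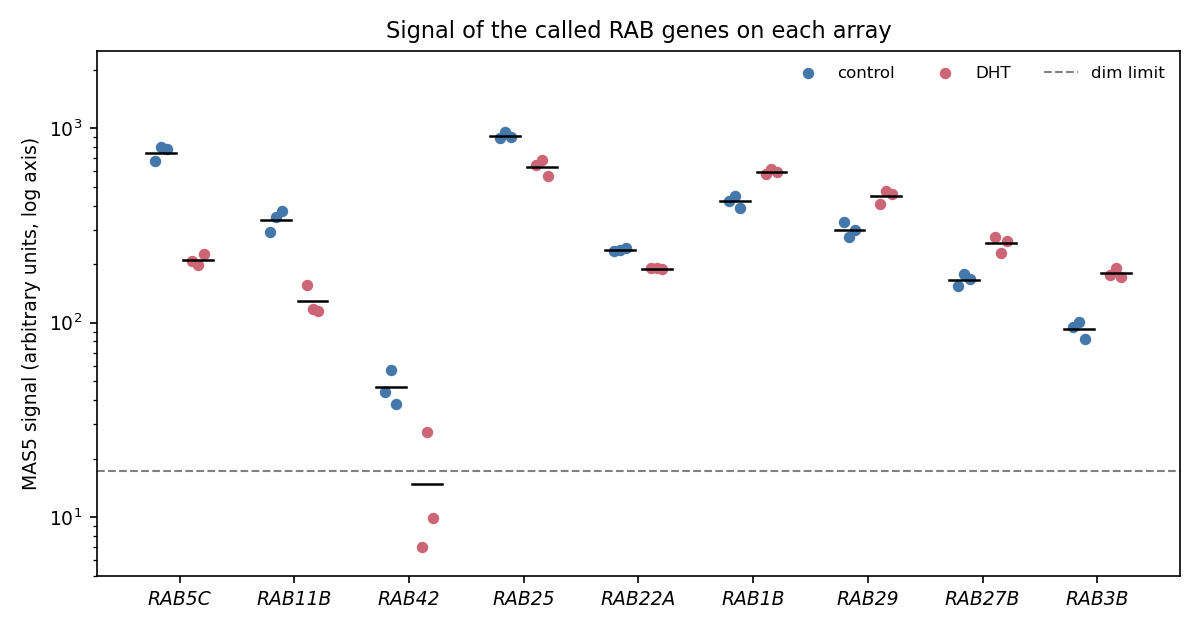
Signal of the 9 called RAB genes on each of the 6 arrays (log axis), with 3 control arrays in blue, 3 DHT arrays in red and the mean of each group as a black line; the dashed line is the lower limit on signal at 17.3. The groups do not overlap for any of the 9 genes, and the DHT arrays of RAB42 scatter around the limit.

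The promoters of the 2 members that fell the furthest and of the 2 that rose the most are shown, to set the sequences of both directions side by side. The sequences are the 250 bases before the first start listed for each gene in RefSeq (GRCh38.p14), 5′ to 3′ on the gene's strand, with the GC box GGGCGG in capitals on either strand. They lie at chr17:42154990-42155239, strand - (RAB5C), chr19:8390110-8390359, strand + (RAB11B), chr1:51990701-51990950, strand - (RAB3B) and chr18:54717607-54717856, strand + (RAB27B).
RAB5C: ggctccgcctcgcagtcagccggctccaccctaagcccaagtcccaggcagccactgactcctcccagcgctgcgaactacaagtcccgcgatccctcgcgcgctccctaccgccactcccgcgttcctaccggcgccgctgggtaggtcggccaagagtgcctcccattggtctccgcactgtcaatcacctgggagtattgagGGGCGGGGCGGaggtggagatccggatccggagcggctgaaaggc
RAB11B: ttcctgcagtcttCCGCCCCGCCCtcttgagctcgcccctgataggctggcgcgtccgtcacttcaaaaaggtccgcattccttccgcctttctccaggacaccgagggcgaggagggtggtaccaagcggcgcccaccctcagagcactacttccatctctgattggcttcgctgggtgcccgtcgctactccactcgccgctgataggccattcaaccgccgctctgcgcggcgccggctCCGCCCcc
RAB3B: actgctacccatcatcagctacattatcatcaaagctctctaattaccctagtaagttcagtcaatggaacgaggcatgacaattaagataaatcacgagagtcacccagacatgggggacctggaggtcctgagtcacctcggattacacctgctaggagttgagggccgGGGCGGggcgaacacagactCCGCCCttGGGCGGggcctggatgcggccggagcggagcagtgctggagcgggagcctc
RAB27B: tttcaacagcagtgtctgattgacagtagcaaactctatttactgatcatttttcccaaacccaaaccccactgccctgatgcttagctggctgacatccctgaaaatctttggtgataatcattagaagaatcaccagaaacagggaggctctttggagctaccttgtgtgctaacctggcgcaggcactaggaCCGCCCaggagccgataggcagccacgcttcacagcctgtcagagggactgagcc
A promoter was listed for 45 of the 57 genes. The GC box was in 82.2% of these 45 windows and in 42.3% of 27305 windows of the same length over all genes, and the median GC content was 65.6% against 58%. The window of RAB5C had a GC content of 67.6% and that of RAB11B 65.6%, against 56.8% for RAB3B and 50.4% for RAB27B. Over all called genes the directions overlapped, at 45.2% to 66.8% for the 4 that rose and 60.4% to 80.8% for the 5 that fell. A difference in GC content between the directions was not tested. The androgen receptor core motif AGAACA, searched on both strands, was in 4 of the 45 (RAB2B, RAB13, RAB23 and RAB40B; 8.89% against 12.4% over all genes) and in none of the 9 called genes. The forkhead motif TGTTTAC was in 0 of the 45 windows and in 2.98% of all. These letters describe the windows and are not sites of binding.

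RAB5 proteins drive the fusion of incoming vesicles with early endosomes, and their 3 isoforms are encoded by separate genes. RAB5C fell the furthest of all members, and 2 of the 14269 genes tested had a lower change. Its signal was 675, 796 and 777 on the control arrays and 208, 199 and 227 on the DHT arrays. Each DHT array was far below the lowest control. The mean was 3.55-fold lower, a change of -1.75 ± 0.09 (SE; limma adjusted p = 1.10e-06), and the other RAB5C probe set went the same way at -1.35 ± 0.09, from 453 to 490 in the controls to 157 to 187 with DHT.

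The other isoforms of RAB5 did not pass. RAB5A had 875, 782 and 848 in the controls and 785, 724 and 684 with DHT, groups that overlapped at a single array (-0.19, adjusted p = 0.159 in limma). RAB5B had 358, 429 and 450 against 505, 429 and 459, which overlapped (0.17, 95% interval -0.05 to 0.39). Within each array the log2 difference between RAB5C and RAB5A shifted by -1.56 ± 0.15 with DHT and that between RAB5C and RAB5B by -1.92 ± 0.08 (SE), with no overlap between groups (two-sided exact permutation p = 0.1 each, the smallest possible, and 0.138 adjusted over 11 pairs).

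Of the 7 early endosome members, 2 fell and 0 rose (limma, at an unadjusted p under 0.05: 3 lower and 0 higher), with a median change of 0.03. RAB22A, which acts between early endosomes and tubules that return cargo, had 233, 235 and 241 in the controls and 190, 190 and 188 with DHT. The arrays of a group lay close together and the groups were apart, yet the change was small at -0.30 ± 0.09 (adjusted p = 0.0457 in limma). That call was lost on leaving out any of the 6 arrays (adjusted p = 0.0896 to 0.128), and with the mean over its probe sets the value was -0.06 (adjusted p = 0.766), with -0.03 and 0.15 in its further probe sets. RAB21, which carries integrins, RAB20 and the dim RAB31 stayed between 0.03 and 0.12 and did not pass.

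Recycling endosomes return receptors to the surface, with RAB4 on a fast route and the RAB11 group, RAB11A, RAB11B and the epithelial RAB25, on a slow one. RAB11B had 292, 348 and 374 in the controls and 157, 117 and 115 with DHT. All DHT arrays were below the controls, 2.61-fold in the mean, at -1.29 ± 0.13 (limma adjusted p = 0.000125). Its dimmer probe set moved less, at -0.65 ± 0.17 (adjusted p = 0.0348 over probe sets), with 129 to 181 in the controls and 71.0 to 113 with DHT. The antisense transcript RAB11B-AS1, read from a probe set of its own, was also lower, from 67.1 ± 5.64 to 42.2 ± 2.19 (SD, n = 3 each; -0.51 ± 0.15, adjusted p = 0.0485 in limma). That call lay close to the threshold, and whether it holds under the alternatives or with an array left out was not examined. Another noncoding gene named for a RAB, RAB30-DT, had 0.38 and did not pass (adjusted p = 0.167 in limma).

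RAB25 had 892, 953 and 896 in the controls against 650, 685 and 567 with DHT, again without overlap. Its change was -0.52 ± 0.08 (limma adjusted p = 0.00227), smaller than that of RAB11B. RAB11A, the closest relative of RAB11B, had 1661, 1770 and 1632 against 1980, 1824 and 1800. All its DHT arrays were above the controls, but the change of 0.14 did not pass (adjusted p = 0.235), and 2 dimmer ones had -0.16 and 0.12. The within-array difference between RAB11B and RAB11A shifted by -1.43 ± 0.14 (SE; exact permutation p = 0.1, 0.138 adjusted over pairs).

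Among all 8 recycling members tested, 2 fell and 0 rose (unadjusted in limma, 2 lower and 0 higher), and the median change was -0.09. RAB4A was read differently by its probe sets. The brightest had 553, 448 and 502 against 458, 448 and 417 (-0.17, adjusted p = 0.256), a second had 0.13, and a dimmer one had 154, 168 and 245 against 337, 292 and 312, a change of 0.71 ± 0.14 (adjusted p = 0.00945 over probe sets). The DHT arrays of that dimmer probe set were all above its controls, and which transcripts the probe sets share was not examined. RAB14, RAB15 and RAB35, which returns cargo to the plasma membrane, lay between 0.00 and 0.15, and RAB17 of polarised epithelia had -0.25 (adjusted p = 0.213).

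**Figure D3:**
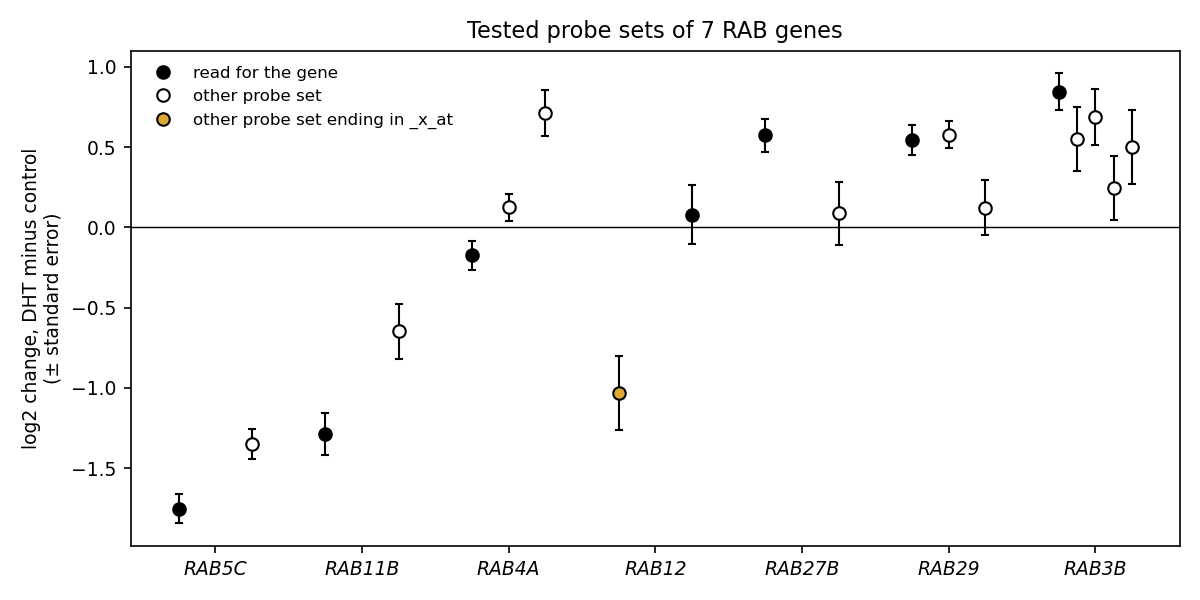
Change of every tested probe set of 7 RAB genes, DHT minus control on the log2(signal + 16) scale, with the standard error as bars; filled points are the probe sets read for the gene, open points the others and the yellow point one ending in _x_at, which is prone to cross-hybridisation. The probe sets of RAB5C, RAB11B and RAB3B lie on 1 side of 0, and those of RAB4A and RAB12 lie on both.

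RAB3 and RAB27 proteins dock secretory vesicles at the plasma membrane. RAB3B rose the most of all members, from 94.9, 101 and 82.5 in the controls to 175, 191 and 171 with DHT. The groups were well separated and the mean was 1.93-fold higher, a change of 0.84 ± 0.11 (limma adjusted p = 0.000786). All 5 RAB3B probe sets had a positive value, from 0.24 to 0.84, and 2 of them passed over probe sets.

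RAB27B had 153, 178 and 168 in the controls and 276, 228 and 262 with DHT, without overlap. It was 1.54-fold higher in the mean (0.57 ± 0.10, limma adjusted p = 0.00468), but a dim second probe set had 0.09, and the mean of both did not pass (0.33, adjusted p = 0.108). RAB27A, which shares many effectors with RAB27B, had 122 to 138 in the controls and 135 to 151 with DHT (0.14, adjusted p = 0.447), and all 5 of its probe sets had values above 0, from 0.14 to 0.55, none of which passed. The shift within an array was 0.43 ± 0.10 for RAB27B against RAB27A and 0.91 ± 0.16 for RAB3B against RAB3D, a form found in granules of exocrine cells (SE; exact permutation p = 0.1 each, 0.138 adjusted over pairs).

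Of 13 secretory members, 2 rose and 0 fell (unadjusted in limma, 2 higher and 1 lower), with a median of 0.08. The largest opposite value was that of RAB13, a regulator of traffic to tight junctions, with 894, 848 and 799 against 694, 631 and 780. Its DHT arrays were all below the controls, and the change of -0.27 ± 0.09 missed the threshold (adjusted p = 0.0709 in limma) but passed without DHT replicate 3 (-0.35, adjusted p = 0.0399). RAB10, which delivers glucose transporters and other cargo to the surface, had -0.19 and RAB26 of secretory granules 0.14. RAB8A, which acts with RAB10 in exocytosis, varied widely within both groups, with 626, 293 and 573 in the controls and 390, 695 and 650 with DHT, so that its interval ran from -0.33 to 0.81. RAB12 had 0.08 in the probe set read for the gene and -1.03 in a brighter one ending in _x_at (adjusted p = 0.0158 over probe sets), with 145 to 240 in the controls and 50.1 to 110 with DHT.

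RAB1 and RAB2 proteins carry cargo between the endoplasmic reticulum and the Golgi. RAB1B rose from 424, 448 and 387 to 579, 620 and 596, with every DHT array above every control. The change was 0.50 ± 0.08 (1.43-fold in the mean; limma adjusted p = 0.00239), and -0.054 with scaling to the spikes. RAB1A, with nearly the same known function, had 1662, 1692 and 1652 against 1531, 1585 and 1474, all below the controls with a change of -0.12 (adjusted p = 0.274). The within-array shift of RAB1B against RAB1A was 0.62 ± 0.06 (SE; exact permutation p = 0.1, 0.138 adjusted over pairs).

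RAB2B had 283, 212 and 265 against 341, 305 and 324, and RAB2A 760, 761 and 759 against 757, 741 and 702. Neither passed (0.34, adjusted p = 0.0664, and -0.05, adjusted p = 0.702), although RAB2B did without control replicate 1 (0.42, adjusted p = 0.0451). The gap between the 2 genes shifted by 0.39 ± 0.13 (exact permutation p = 0.1). In the list of 13 tested members of the endoplasmic reticulum and Golgi, 1 rose and 0 fell (unadjusted in limma, 4 higher and 0 lower), with a median of -0.05. RAB33B, known from the Golgi and from autophagy, had 0.37 and RAB39A 0.69, both short of the threshold (adjusted p = 0.151 and 0.0755). RAB39A passed without control replicate 2 (0.93, adjusted p = 0.0203), the control array with 57.4 where the other 2 had 24.3 and 33.1. RAB6B had 3 probe sets that differed in sign, at 0.15, -0.16 and 0.32, and none passed. RAB18, which acts at the endoplasmic reticulum and lipid droplets, had 1298, 1211 and 1204 against 1095, 1182 and 1050, below all controls but short of the threshold (-0.16, adjusted p = 0.208).

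**Figure D4:**
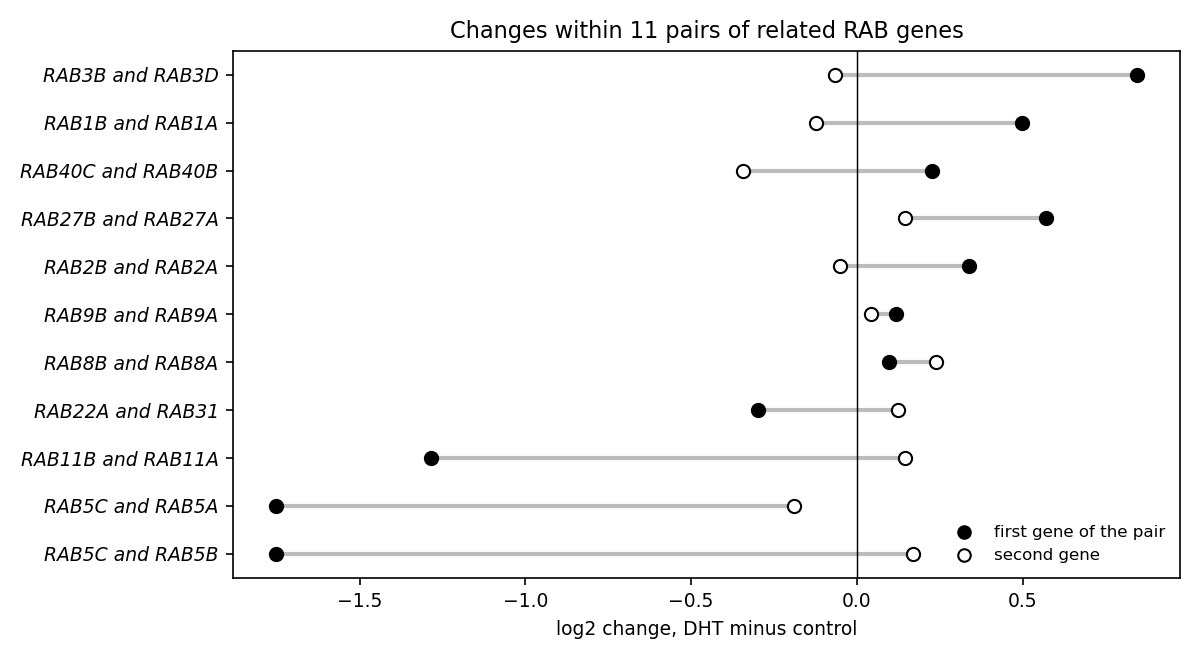
Changes of the genes in 11 pairs of related RAB genes, DHT minus control on the log2(signal + 16) scale; a filled point is the gene named first, an open point the gene named second, and the grey line the gap. The widest gaps are those of RAB5C to RAB5B, RAB5C to RAB5A and RAB11B to RAB11A, at -1.92, -1.56 and -1.43.

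On late endosomes and lysosomes, RAB7A directs fusion with lysosomes and RAB9A retrieves receptors to the Golgi. In the probe sets read for them both were nearly level, at -0.03 (95% interval -0.19 to 0.12) and 0.04 (-0.15 to 0.24). The 5 tested probe sets of RAB7A differed in sign, from -0.22 to 0.37, and none passed over probe sets. RAB29, which binds the kinase LRRK2 at the Golgi and on stressed lysosomes, rose from 328, 276 and 298 to 406, 474 and 459, again without overlap. Its change was 0.55 ± 0.09 (1.48-fold in the mean; limma adjusted p = 0.00338), and a second probe set of like brightness had 0.58 ± 0.08, while a dim one had 0.12. With scaling to the spikes RAB29 had -0.0058. RAB32, which serves lysosome-related organelles and also binds LRRK2, had 152, 114 and 140 against 168, 189 and 177 (0.37, adjusted p = 0.0672), and RAB24, linked to autophagy, had 384, 385 and 339 against 323, 297 and 299 (-0.26, adjusted p = 0.0788). The arrays of both were separated by group without passing. In this list of 7, 1 rose and 0 fell (unadjusted in limma, 2 higher and 1 lower), with a median of 0.12.

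The last list holds RAB23 and RAB28 of cilia, the RAB40 genes, whose proteins are parts of ubiquitin ligases, and RAB42. Of its 5 tested members 1 fell and 0 rose (unadjusted in limma, 2 lower and 1 higher). RAB42 had 44.1, 57.2 and 38.3 in the controls and 7.03, 27.3 and 9.93 with DHT. The groups did not overlap, but the DHT mean of 14.8 lay below the limit of 17.3, where MAS5 values are noisy, and the change of -1.07 ± 0.26 (limma adjusted p = 0.0219) passed in only 2 of the 6 fits with an array left out. The call was lost on leaving out control replicate 1 (adjusted p = 0.059), control replicate 2 (0.0825), DHT replicate 1 (0.0717) or DHT replicate 3 (0.0681). RAB40C had 0.23 with all DHT arrays above the controls (adjusted p = 0.11), and RAB40B had -0.34 (adjusted p = 0.174), or -0.54 (adjusted p = 0.0171) without DHT replicate 1. The shift between RAB40C and RAB40B was 0.57 ± 0.23 (SE; exact permutation p = 0.1).

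Of the 13 pairs of relatives listed, 11 had both genes tested. In 8 of them the within-array difference did not overlap between the groups, each with an exact permutation p of 0.1, which is the smallest possible and 0.138 after adjustment over the pairs. The exceptions were RAB8B with RAB8A (-0.14 ± 0.34), RAB22A with RAB31 (-0.42 ± 0.22) and RAB9B with RAB9A (0.08 ± 0.38). RAB31 and RAB9B were dim, with means of 18.7 and 17.1 in the controls. Several of these pairs were picked with the changes of their members known, so that the count of 8 describes them and tests nothing more.

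The 53 genes were represented by 116 tested probe sets, and 31 genes by more than 1. In 12 of those 31 all probe sets had the same sign. Of all 32768 probe sets tested, 3388 passed over probe sets, and the next counts are to be read against that share. Of the 63 probe sets not read for a gene, 3 passed as higher and 3 as lower over probe sets. Those were the second probe sets of RAB5C, RAB11B, RAB29 and RAB3B, which went with the probe set read, and the ones of RAB4A and RAB12 described above, which did not.

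The proteins that act on RABs were taken from 6 lists of 157 genes, of which 142 were tested. Among them 14 rose and 9 fell, 16.2% where 12.9% of all genes passed, with a median of -0.00. The genes that attach the lipid tail and return RABs through the cytosol, 6 of them tested, gave 0 calls in limma (0 also at an unadjusted p under 0.05). Their changes ran from -0.20 for CHML, an escort protein, to 0.18 for RABGGTB, a subunit of the transferase.

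Early endosome and recycling effectors had 2 genes higher and 4 lower of 24 (unadjusted in limma, 2 higher and 6 lower). APPL2 and APPL1 are adaptors that RAB5 brings to a class of early endosomes. APPL2 had 495, 484 and 515 in the controls and 310, 310 and 280 with DHT (-0.70 ± 0.08, limma adjusted p = 0.000302). APPL1 went from 328 ± 19.6 to 244 ± 13.1 (SD, n = 3 each; -0.40 ± 0.09, adjusted p = 0.0121), but its second probe set had 0.01, and leaving out control replicate 3 ended the call (adjusted p = 0.0544). RAB11FIP3, a RAB11 effector of recycling endosomes, was lower at -0.52 ± 0.10, with further probe sets at -1.02 and 0.26, and so was the RAB11 partner RELCH at -0.60 ± 0.13, a call lost without the intensity trend of limma (adjusted p = 0.0719). The higher genes of this list were PIK3R4 and ANKFY1, at 0.40 and 0.36.

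Of 21 secretory effectors 2 rose and 1 fell (unadjusted in limma, 4 higher and 2 lower). The motor MYO5C, a class V myosin of secretory epithelia, had 507, 560 and 578 against 861, 817 and 894 (0.63 ± 0.08, limma adjusted p = 0.000514), without overlap. MLPH, melanophilin, which links RAB27 to myosin, had 744, 736 and 764 against 898, 888 and 1013 (0.31 ± 0.08, adjusted p = 0.0209). The call for MLPH was lost without control replicate 1, control replicate 2 or DHT replicate 3 (adjusted p up to 0.0859). RIMS1, an active zone effector of RAB3, was lower at -0.39 ± 0.09, with -0.80 in a second probe set, and did not pass without control replicate 2 or control replicate 3 (adjusted p up to 0.0524).

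Golgi and late endosome effectors had 3 higher and 0 lower of 24 (unadjusted in limma, 5 higher and 3 lower). KIF20A, a kinesin first described as a RAB6 partner and also a motor of cell division, had 110, 90.9 and 102 against 251, 209 and 193 (0.99 ± 0.12, limma adjusted p = 0.000525). BICD1, which couples RAB6 vesicles to dynein, had 171, 161 and 154 against 255, 239 and 247 (0.56 ± 0.09), while 4 of its 6 tested probe sets did not pass and the mean of all did not either (0.27, adjusted p = 0.0929). FYCO1, which couples RAB7 vesicles to kinesin, was higher at 0.41 ± 0.09, but had -0.10 in a second probe set and leaving out DHT replicate 3 ended the call (adjusted p = 0.0519).

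Exchange factors had 4 genes higher and 3 lower of 36 (unadjusted in limma, 6 higher and 5 lower). DENND1B, which acts on RAB35, was lower, with 356, 324 and 346 against 199, 206 and 198 (-0.72 ± 0.09, limma adjusted p = 0.000363). Its further tested probe sets had -0.14, -0.35, -0.22 and -0.42, and none of these passed over probe sets. RGP1, a subunit of the RAB6 exchange factor, was lower at -0.56 ± 0.12, a call lost without the intensity trend of limma (adjusted p = 0.0599). MADD, which loads RAB3 and RAB27, was higher at 0.51 ± 0.10 and ANKRD27, which loads RAB21, at 0.41 ± 0.08. A second MADD probe set of like brightness had 0.06, and the MADD call was lost with the mean of both (0.28, adjusted p = 0.0562 in limma) and with equal array medians (0.0641). That of ANKRD27 was lost with equal array medians (adjusted p = 0.0879) and without the intensity trend of limma (0.0616). Of 31 GTPase-activating proteins 3 rose and 1 fell, while at an unadjusted p under 0.05 in limma 4 were higher and 5 lower, and 18 of the 31 had a change below 0 (median -0.06). TBC1D9 had 659, 666 and 646 against 1076, 1028 and 1059 (0.67 ± 0.07, limma adjusted p = 0.000125), with 0.01 in a dimmer probe set. TBC1D15, which acts on RAB7 (0.39), TBC1D24 (0.47) and TBC1D10B (-0.43) passed narrowly, and each lost its call in at least 4 of 6 fits with an array left out (adjusted p up to 0.0864, 0.112 and 0.168). A further TBC1D24 probe set had 0.65 (limma adjusted p = 0.00939 over probe sets), and a dim TBC1D15 one had -0.25 and did not pass.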

How the data were processed

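RNA from 6 LNCaP cultures was hybridised, 1 culture per array, to single-colour Affymetrix arrays (per the labels). The authors deposited signal intensity values on a linear scale. MAS5, which the submitters' processing notes name without a version, makes 1 signal from the probe pairs of a probe set, and dim values are noisy. No further normalisation was applied, 0 columns were left unused, and no genome build is named for the table.

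Of 54675 probe sets, 62 array controls were left out of the tests, as were the lowest 40% of the rest by mean log2(signal + 16), which is a signal of 17.3. The 32768 left were fitted together with limma 3.58.1 in R 4.3.3 (lmFit, and eBayes with an intensity trend), with 4 residual degrees of freedom. The probe set with the highest mean on that scale was read for each gene, one ending in _x_at only where no other passed, and p-values were adjusted over 14269 genes. Gene names come from the platform annotation: 41097 probe sets name 1 gene, 1801 several and 11777 none, and 41043 matched the RefSeq gene table (GRCh38.p14). Pairs of genes were compared by an exact permutation test over arrays. The fit was tested on simulated data.

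The members, role lists, pairs and partner lists were chosen with earlier results of these data known. Every member that passed is named with its signal on each array, and from each partner list up to 4 passing genes with the smallest adjusted p are named; PIK3R4 and ANKFY1 were added after their values were seen. Alternatives were other pseudocounts, limits, scalings, eBayes settings and probe set rules, the replicate number as a block, and leaving out each array.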

Additional observations from a re-analysis of the deposited data

Results flagged for a closer look

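The dimmest RAB4A probe set was not used for the gene's value, yet its signal was higher with DHT, at 0.71 on the log2(signal + 16) scale, while the brighter probe set read for RAB4A did not pass. The hybridisation spike probe sets, 18 in all and outside the tests, had a mean log2 signal that was 0.55 higher on the DHT arrays than on the controls.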

How the results depend on the processing

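RAB5C, RAB11B and RAB25 passed in the same direction under all alternatives run. RAB3B, RAB29 and RAB1B did so except under spike scaling, and RAB27B except there and with the mean of its probe sets. RAB25 and RAB1B were each read from their only probe set, so that the alternative probe set rules could not change their values. RAB22A and RAB42 depended on the setting. With 4 RAB genes higher and 5 lower in the fit reported, leaving out 1 array gave 4 to 5 higher and 3 to 4 lower (all genes: 629 to 774 higher and 517 to 652 lower, against 991 and 843). Without the intensity trend 384 genes were higher and 287 lower, and 3 RAB genes lower. With equal array medians 466 genes were higher and 40.8% of calls were, against 54.0%. Spike scaling gave 104 genes higher and 9141 lower, with 0 RAB genes higher and 35 lower (adjusted p of limma). That scaling subtracts from each array an offset of its own, which lowers every change by 0.55 and also alters the spread within groups. It left 3 of the 53 RAB genes above 0, against 29 in the fit reported. Of the 26 that turned, 12 passed in neither fit; the other 14, which passed in either, and 6 partner genes went below 0: RAB11A (-0.41), RAB14 (-0.50), RAB15 (-0.55), RAB1B (-0.054), RAB20 (-0.48), RAB21 (-0.52), RAB26 (-0.41), RAB27A (-0.41), RAB29 (-0.0058), RAB35 (-0.40), RAB5B (-0.38), RAB6B (-0.40), RAB8B (-0.46), RAB9A (-0.51), ANKRD27 (-0.14), MADD (-0.046), TBC1D15 (-0.16), TBC1D24 (-0.081), MLPH (-0.24) and FYCO1 (-0.14). Of the 18 partner genes named, calls were lost for 10 without the intensity trend, for 9 with spike scaling, for 7 with equal medians and for 6 when all probe sets of a gene were averaged; DENND1B, APPL2, RAB11FIP3 and KIF20A kept theirs in all of these and with each array left out. RAB12 was -1.03 when 60% of probe sets were removed as dim or when _x_at probe sets were allowed, where another probe set is read. With the replicate block 9 RAB genes passed, RAB2B among them (limma adjusted p = 0.0445) and RAB22A no longer (0.0776). Over all genes 889 were higher and 809 lower with that block. Deviations of same-numbered arrays correlated at r = -0.0304 to -0.000918, and those of differently numbered arrays at -0.0293 to 0.0443. No sign of pairing was seen, but with 3 arrays per group this check cannot exclude that same-numbered cultures were handled together. Without the limit on dim probe sets RAB42 had an adjusted p of 0.0575. RAB calls among dim members rest on MAS5 signals near background, where no detection calls were used.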

Other observations

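Small GTPases of other families were also measured, with families set by symbol after the RAB values were seen. Of 12 tested ARF and ARL family genes 1 rose and 2 fell. SAR1A, which starts the coats of vesicles leaving the endoplasmic reticulum, rose from a signal of 285 ± 19.8 to 446 ± 7.55 (SD, n = 3 each; 0.62 ± 0.08 on the log2 scale, limma adjusted p = 0.000698), while ARF5 (-0.38) and ARL15 (-0.41) fell. Of 21 RAS family genes HRAS fell (-0.42) and 0 rose (2 higher and 1 lower at an unadjusted p under 0.05 in limma). The RAB-like gene RABL3 fell from 207 ± 7.66 to 125 ± 23.0 (-0.68 ± 0.12, adjusted p = 0.00481 in limma).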
